A study of Homo sapiens with 6 samples.

Results

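Expression in Daoy cells exposed to thapsigargin for 8 h was compared with expression in the same cells exposed for 3 h, to ask which transcripts decayed and which built up between the times. Daoy is an established human medulloblastoma line. Thapsigargin (Tg) was given at 1 µM for 3 h or 8 h, with 2 arrays for each time, and another 2 arrays came from cells that were plated and received nothing. No vehicle is named for the untreated cells, and the sources describe 2 independent experiments without saying whether they were run side by side. The comparison therefore rests on 4 of the 6 arrays of the series. Probe sets were kept when 2 or more of the 4 Tg arrays reached a signal of 100, each gene was read from the brightest probe set that carried its symbol alone, and 12307 of 19775 genes could be tested in this way. Values are log2 differences of Tg 8 h minus Tg 3 h, taken within replicate number 1 and replicate number 2 and averaged.

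Thapsigargin blocks the SERCA pump that loads calcium into the endoplasmic reticulum (ER), so that calcium leaks into the cytosol and client proteins in the ER misfold. The unfolded protein response (UPR) that follows has 3 sensors. PERK slows translation and favours that of the transcription factor ATF4, IRE1 splices the XBP1 mRNA and cleaves some ER-bound mRNAs, and ATF6 travels to the Golgi and is cut there to release a transcription factor. Calcium and stress kinases also switch on immediate early genes, whose mRNAs are usually short-lived, while chaperones and other parts of the secretory machinery are later and longer-lived products.

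Markers of several kinds were found on the 4 Tg arrays. In the neural and medulloblastoma list VIM, which mesenchymal cells also express, had signals of 31633 to 49787 and made up most of the list's sum of 39441 to 59993, and ZIC1, ZIC2, PAX6, SOX2 and SOX11 had signals of 498 or more, whereas NES (110.2 to 358) and OTX2 (97.6 to 112) were dim and ATOH1, BARHL1 and MYCN stayed under 100 on every array. The fibroblast list summed to 26307 to 37614 at 3 h and 25273 to 40922 at 8 h. COL1A1 was at 17639 to 30015, COL3A1 at 2155 to 4909 and POSTN at 2786 to 3122. LUM and FAP reached only 515 and 403, DCN was at 36.3 to 102, and PDGFRA and PDGFRB stayed under 100 on every Tg array. Of 12 astrocyte and neuron markers 5 passed the signal filter, with TUBB3 at 10183 to 15271 and SYT1 at 573 to 1196. GFAP, AQP4 and S100B stayed under 100. Of 10 immune markers with a probe set of their own, 1 passed the signal filter. The summed signal of the endothelial list was 1776 to 2276 at 3 h and 1736 to 1802 at 8 h, with PECAM1, CDH5 and VWF at no more than 122, but TIE1 at 448 to 655 and ERG, ENG and TEK reaching 690, 336 and 299. Bulk RNA cannot tell fewer cells of a kind from less of an mRNA in each cell. The median signal was 102.8 and 75.2 on the 3 h arrays and 84.6 and 69.5 on the 8 h arrays, and the hybridisation spikes were brighter in replicate 1 (7762 to 11670) than in replicate 2 (2718 to 2840). The 3′ to 5′ signal ratio of ACTB, a sign of RNA quality, fell from 4.47 to 3.49 in replicate 1 and rose from 2.75 to 3.25 in replicate 2.

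Between 3 h and 8 h, 418 of 12307 genes changed (limma with replicate number as a block, Benjamini-Hochberg adjusted p under 0.05), which is 3.4%. Counted by probe set, 681 of 25699 (2.65%) passed, 350 (1.36%) higher and 331 (1.29%) lower. Of the genes, 193 genes (1.57%) were higher at 8 h and 225 (1.83%) were lower. On the deposited scale the falls were the larger. The median change was −1.02 among the genes that fell and 0.91 among those that rose, and 122 falls against 75 rises were at least 2-fold. The direction was the same in both replicate numbers for all 193 and all 225 genes. The blocked test counts disagreement between the replicates as spread, so a gene with opposite signs could hardly pass. This agreement is therefore largely built into the calls and is not separate support for them. The 2 arrays of one time did not overlap the 2 of the other for 186 of the risers and 211 of the fallers, where 14.1% of all tested genes were separated upwards and 22.7% downwards. Over all tested genes the median difference was −0.06. When each array was centred on its own median, the split became 274 higher and 161 lower. Centring moved the median difference over all tested genes to 0.05, which makes each fall smaller and each rise larger. The sizes of falls and rises were not compared again on that scale, so their order may depend on the scaling.

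The calls depend on how the spread between arrays was estimated. Without the replicate block 0 genes passed in limma, although 985 had an unadjusted p under 0.05, and without letting the spread vary with signal 0 passed, with 1648 at that unadjusted level. The local pooled error test that the methods use for treated against untreated cells called 22 genes higher and 20 lower. Leaving out Tg 3 h replicate 1 left 13 and 21 genes, leaving out Tg 8 h replicate 1 left 59 and 106, and leaving out Tg 8 h replicate 2 gave 314 and 363. Of the 90 changed genes named by rule, 71 no longer passed without Tg 3 h replicate 1 and 32 without Tg 8 h replicate 1. Across genes, which are not independent replicates, the differences of replicate 1 and replicate 2 had a Pearson r of 0.29 for all 12307 and of 0.60 for the 7059 genes with a mean signal of at least 500 at both times. Replicate 1 moved further, with the larger difference for 155 of the 193 risers and 146 of the 225 fallers.

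**Figure D1:**
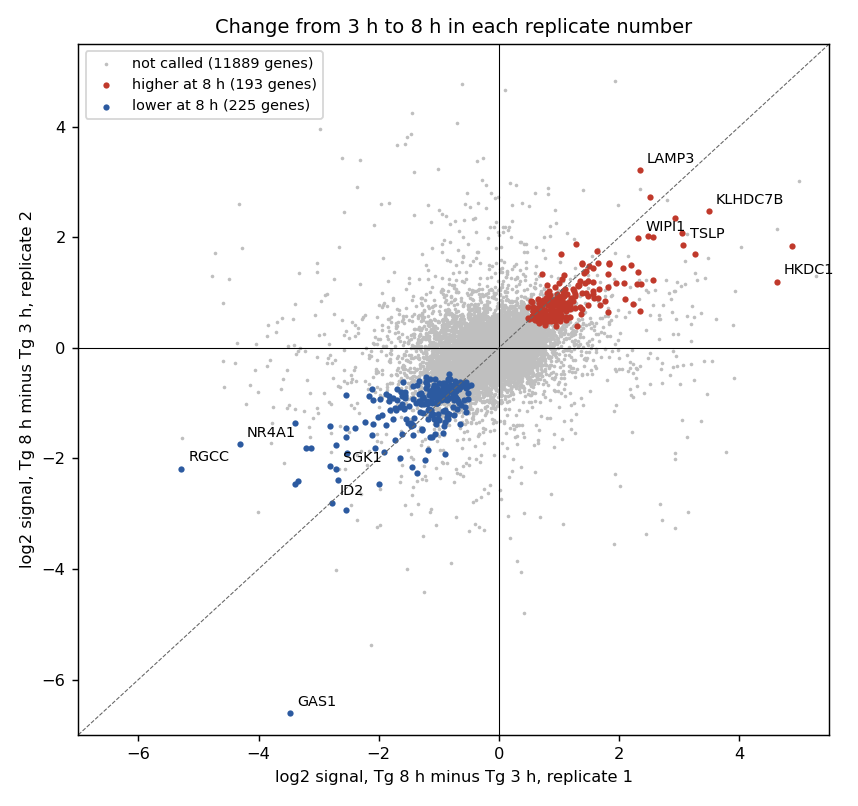
Each point is a gene, placed by its log2 difference of Tg 8 h minus Tg 3 h in replicate 1 (x axis) and replicate 2 (y axis), with genes that passed the test in red (193 higher) and blue (225 lower) and the diagonal dashed. All coloured points lie either below 0 or above 0 on both axes, which the blocked test largely ensures. Grey points, which did not pass, also lie where the signs of the replicates differ.

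The 15 largest falls, by size, ran from GAS1, RGCC, NR4A1, NEDD9 and ID2 to EFNA1, DUSP1 and EDN1, and SGK1 had the smallest adjusted p of them. SGK1, a kinase of the AGC family that responds to serum and stress, had signals of 17273 and 10870 at 3 h and 2646 and 2388 at 8 h, against 3609 and 2598 in untreated cells. It fell by 2.45 (SE 0.14, adjusted p = 0.00076, limma), a 5.45-fold drop, and both 8 h arrays lay below both 3 h arrays. GEM, a small GTPase that restrains calcium channels, went from 4949 and 3943 to 770 and 750, with untreated signals of 1898 and 834, a fall of 2.54 (SE 0.24, adjusted p = 0.0029). DUSP1, the nuclear phosphatase that switches off p38, JNK and ERK, went from 9144 and 7169 to 1731 and 2611 (−1.93, SE 0.23, adjusted p = 0.007). Its 8 h signals were close to the untreated values of 1424 and 2349. SGK1, GEM and DUSP1 all passed with each of the 6 arrays left out in turn and in the local pooled error test.

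NEDD9, a docking protein at focal adhesions, went from 3231 and 2918 at 3 h to 319 and 553 at 8 h and so ended below its untreated signals of 1349 and 1212 (−2.87, SE 0.23, adjusted p = 0.0017). EDN1, which encodes the vasoconstrictor peptide endothelin-1, fell from 665 and 682 to 160 and 195, with 372 and 383 in untreated cells (−1.93, adjusted p = 0.007). EFNA1, an ephrin ligand, FAM20C, the kinase that phosphorylates secreted proteins, ARID5B, a DNA-binding chromatin factor, and FILIP1L fell by 2.00 to 2.51. Some large falls ended in dim signal, where the fold is poorly measured. GAS1 went from 1231 and 313 to 111 and 3.2, a difference of −5.04 that became −2.56 when signals under 100 were raised to 100. RGCC, a regulator of cyclin-dependent kinase, went from 1136 and 253 to 29.0 and 55.6, both 8 h signals lying under 100, and its difference of −3.74 became −2.42. ZNF367 and SH3RF2 completed the 15 largest falls, with −2.23 and −2.21.

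**Figure D2:**
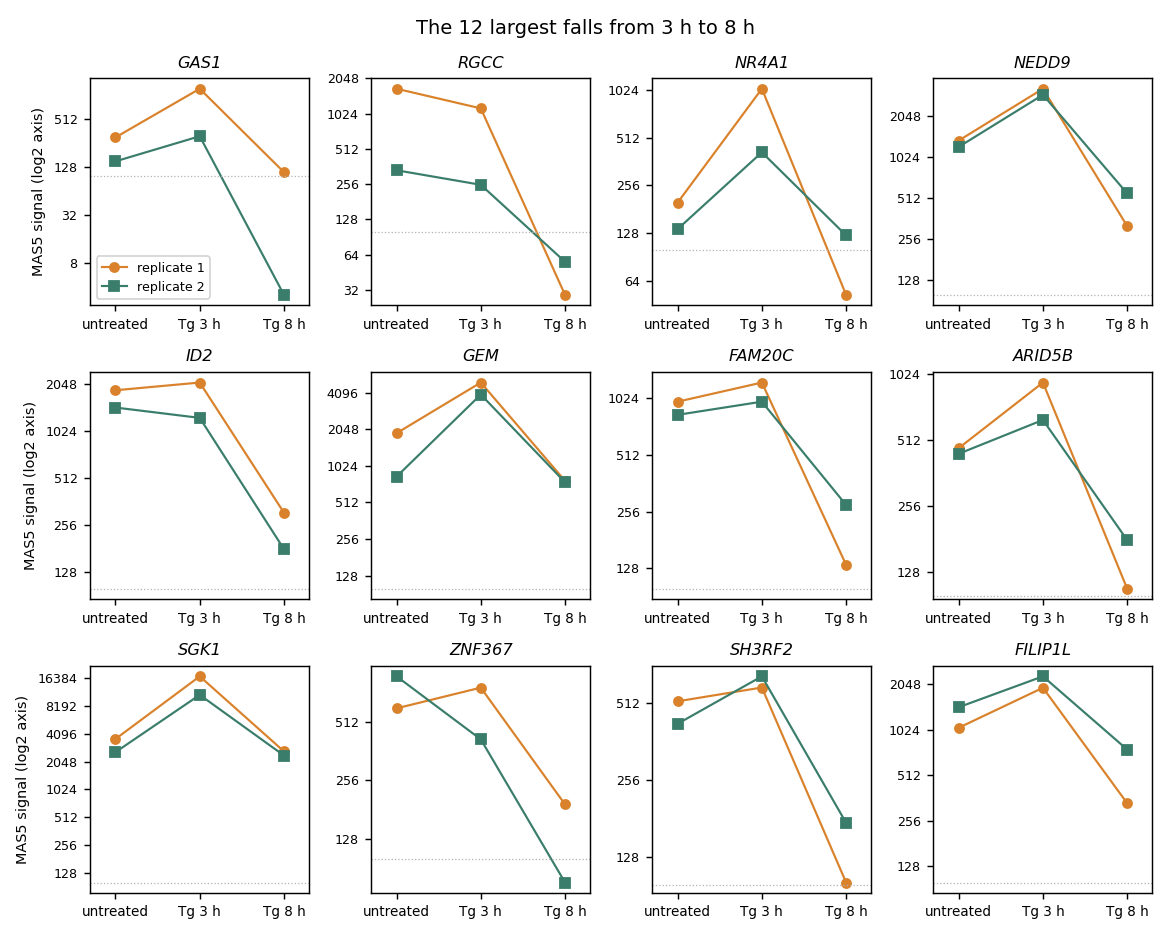
Signals on a log2 axis in untreated, Tg 3 h and Tg 8 h cells for the 12 genes that fell most from 3 h to 8 h, with replicate 1 in orange, replicate 2 in green and a dotted line at a signal of 100. Each line drops from 3 h to 8 h, and for SGK1 the 8 h points lie beside the untreated ones, while for ID2 and NEDD9 they lie under them.

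Of 35 tested immediate early genes, 9 fell and 0 rose, against 1.83% and 1.57% of all genes, and their median was −0.58 against −0.06. The 9 were SGK1, NR4A1, RGS2, PLK2, TIPARP, KLF10, ZFP36L2, HES1 and ZFP36L1. RGS2, which shortens signalling by G proteins, went from 3410 and 2027 to 901 and 547, beside untreated values of 872 and 799 (−1.90, SE 0.19, adjusted p = 0.0037). PLK2, a kinase of the polo family, went from 7613 and 5697 to 2253 and 2325 and was below its untreated level of 5956 and 5109 by then (−1.52, adjusted p = 0.0025). NR4A1, an orphan nuclear receptor, went from 1040 and 414 to 52.4 and 124 on a probe set whose suffix marks possible cross-hybridisation (−3.02, adjusted p = 0.023). The other tested probe set of NR4A1 gave −1.18 without passing. Its relative NR4A2, also on a probe set with that suffix, went from 2702 and 608 to 391.5 and 164 but did not pass (−2.34, adjusted p = 0.10). The list did not move as one: EGR1 had 5405 and 5308 at 3 h and 3992 and 6134 at 8 h (−0.11, adjusted p = 0.81), IER2 differed by −0.05, and ATF3, at 5585 and 7850 and then 4269 and 6088, by −0.38. Without Tg 3 h replicate 1 the number that fell was 3, and the local pooled error test called 5.

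Feedback inhibitors of kinase and NF-kB signalling gave few calls, where 1.83% of all tested genes fell and 1.57% rose. In the MAPK feedback list 2 of 14 tested genes fell, DUSP1 and SPRY2, the latter an inhibitor of receptor tyrosine kinase signalling with 2894 and 1871 at 3 h and 1263 and 1174 at 8 h (−0.93, adjusted p = 0.028). In the NF-kB list 2 of 17 fell, namely the subunit gene REL, from 1386 and 922 to 476 and 377 (−1.42, adjusted p = 0.012), and NFKBIA, the inhibitor that holds NF-kB in the cytosol, from 5708 and 6820 to 3483 and 3653 (−0.81, adjusted p = 0.016). None of 12 tested calcineurin and NFAT genes passed in either direction. RCAN1, the calcineurin inhibitor, had 49260 and 28217 at 3 h and 34560 and 20424 at 8 h beside 2259 and 3362 in untreated cells, a difference of −0.49 (SE 0.28, adjusted p = 0.43).

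Cytokines went both ways. Of 14 tested, IL11 fell and TSLP and IL1A rose, where 1.83% of all tested genes fell and 1.57% rose. IL11, a cytokine of the IL-6 family, went from 3946 and 1137 to 1440 and 424, with the 2 groups overlapping because replicate 1 was brighter throughout, and dropped by about the same amount within each replicate (−1.46 and −1.42, adjusted p = 0.019). TSLP, a cytokine of epithelial cells that acts on dendritic cells, went from 392.3 and 677 to 3293 and 2454, beside 85.5 and 304 in untreated cells (2.46, SE 0.41, adjusted p = 0.019). IL1A, interleukin-1 alpha, rose from 385 and 724 to 1045 and 1631 (1.31, adjusted p = 0.022). LIF had 1795 and 1656 at 3 h and 573 and 968 at 8 h but missed the threshold (−1.21, adjusted p = 0.053). CCL20 was at 1217 and 736 and then 702 and 698 (−0.44, adjusted p = 0.53), far above its 24.5 and 27.6 in untreated cells at both times.

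The TGF-beta, BMP and ID list had the largest share of fallers among the lists with more than 20 tested genes. Of 21 tested, 7 fell and 0 rose, against 1.83% and 1.57% of all genes, with a median of −0.72 (−0.70 in replicate 1 and −0.73 in replicate 2) against −0.06. ID1, ID2 and ID3 encode helix-loop-helix proteins that bind basic helix-loop-helix factors and keep them off DNA, and are transcribed in response to BMP. ID2 went from 2101 and 1247 at 3 h to 307 and 179 at 8 h, from an untreated level of 1875 and 1453 (−2.79, SE 0.18, adjusted p = 0.00079). ID1 went from 5778 and 4170 to 2237 and 866 and ID3 from 14065 and 9080 to 5151 and 2029, differences of −1.82 and −1.81. For ID1, ID2 and ID3 the 3 h arrays all lay above the 8 h arrays. INHBA, the activin A subunit, stood at 22000 and 11881 at 3 h and at 6664 and 3727 at 8 h, near its untreated 6484 and 4258 (−1.70, SE 0.12, adjusted p = 0.00084). The inhibitory SMAD7, the transducer SMAD3 and the receptor TGFBR2 fell by 1.22, 1.18 and 0.70. ID1, ID2, ID3 and INHBA also passed with each array left out and were the 4 members called by the local pooled error test.

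In the hedgehog list, 3 of 10 tested genes fell and 0 rose, against 1.83% and 1.57% of all genes. Beside GAS1, a co-receptor for the sonic hedgehog ligand, these were the transcription factors GLI2, from 579 and 394 to 196 and 219 (−1.20, adjusted p = 0.045), and GLI3, from 1525 and 1468 to 982 and 939 (−0.64, adjusted p = 0.049). Of the other probe sets of GLI3, one gave 0.05 and another fell by 0.93 and passed (adjusted p = 0.04, limma). As read from its brightest probe set, GLI3 did not pass in any of the fits that left out an array. SOX9, a transcription factor of neural progenitors, fell from 1392 and 985 to 772 and 601 (−0.78, adjusted p = 0.036).

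Reported substrates of IRE1-dependent decay, mRNAs that activated IRE1 cleaves at the ER membrane, were a short list of 10 tested genes. Of these 2 fell and 0 rose, against 1.83% and 1.57% of all genes, and the median was −0.43 against −0.06. CD59, the membrane inhibitor of complement, fell in steps from 6130 and 4479 in untreated cells to 2873 and 2159 at 3 h and 1186 and 775 at 8 h. The difference between the times was −1.38 (SE 0.13, adjusted p = 0.0029), and the gene's other 3 probe sets fell by 1.15, 1.26 and 1.38, each passing the test. TGOLN2, a protein of the trans-Golgi network, went from 7189 and 4964 to 3161 and 2360 and then to 1376 and 1212 (−1.08, adjusted p = 0.008). Its other 3 probe sets gave −0.86 to −0.91 without passing.

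Genes of S phase and DNA replication fell in part. Of 50 tested, 7 were lower (14.0%, against 1.83% of all genes) and 1 was higher (2.0%, against 1.57%), with a median of −0.27 and 33 lower in both replicates. The fallers were the transcription factors E2F8 and E2F2, the origin factors MCM10 and CDT1, the chromatin assembly subunits CHAF1A and CHAF1B, and the polymerase subunit POLE2. E2F8 was flat from untreated (892 and 976) to 3 h (824 and 977) and then dropped to 263 and 246 (−1.82, SE 0.19, adjusted p = 0.005). MCM10 went from 1865 and 1561 to 771 and 566 (−1.37, adjusted p = 0.0057). The exception was CDC6, which loads the replicative helicase, at 2753 and 5019 at 3 h and 9384 and 9032 at 8 h (1.31, SE 0.20, adjusted p = 0.014). With an array left out the count of fallers was 2 to 5, it was 4 when arrays were centred on their median or the untreated arrays were dropped, and the local pooled error test called 0. Of 46 genes of G2 and mitosis 2 fell (4.35%, against 1.83% of all genes), CDC25A, the phosphatase that activates cyclin-dependent kinases, by 1.22 and SPC24, a kinetochore subunit, by 1.07. Among 16 regulators of G1, the cell cycle inhibitor CDKN1A rose from 1851 and 2530 to 4382 and 5285 (1.15, SE 0.14, adjusted p = 0.0071) and E2F3 fell by 0.74.

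Among the 15 largest rises WIPI1 had the smallest adjusted p. WIPI1 binds phosphoinositides on the forming autophagosome. Its signals were 874 and 1239 at 3 h, beside 571 and 865 in untreated cells, and 4355 and 4920 at 8 h. The rise was 2.15 (SE 0.16, adjusted p = 0.00084, limma), 4.45-fold, and it held with each array left out. KLHDC7B, a kelch-domain protein, went from 111 and 182 to 1249 and 1011 (2.98, SE 0.37, adjusted p = 0.0077), and LAMP3, a lysosomal membrane protein, from 121 and 142 to 615 and 1321 (2.78, SE 0.45, adjusted p = 0.017). NIBAN1, a stress-induced protein that affects translation, rose from 1115 and 2488 to 6573 and 5863 (1.90, adjusted p = 0.017). CMKLR2, a G protein-coupled receptor for chemerin, went from 116 and 84.9 to 665 and 562, with 115 and 100.1 in untreated cells, on a probe set marked for cross-hybridisation (2.62, adjusted p = 0.008). IL20RB, a receptor subunit for the IL-20 family, rose by 2.56, the glycosyltransferase B3GALT5 by 2.28, the peptide hormone gene SPX by 2.25, the tight junction protein CLDN1 by 1.85 and the long non-coding RNA LINC02806 by 2.48. FIBIN and HKDC1, a member of the hexokinase family, rose by 3.36 and 2.91, but both 3 h signals in replicate 1 were dim, at 20.9 and 27.3. These rises became 2.23 and 1.98 when signals under 100 were raised to 100, and for HKDC1 the arrays of the 2 times overlapped.

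**Figure D3:**
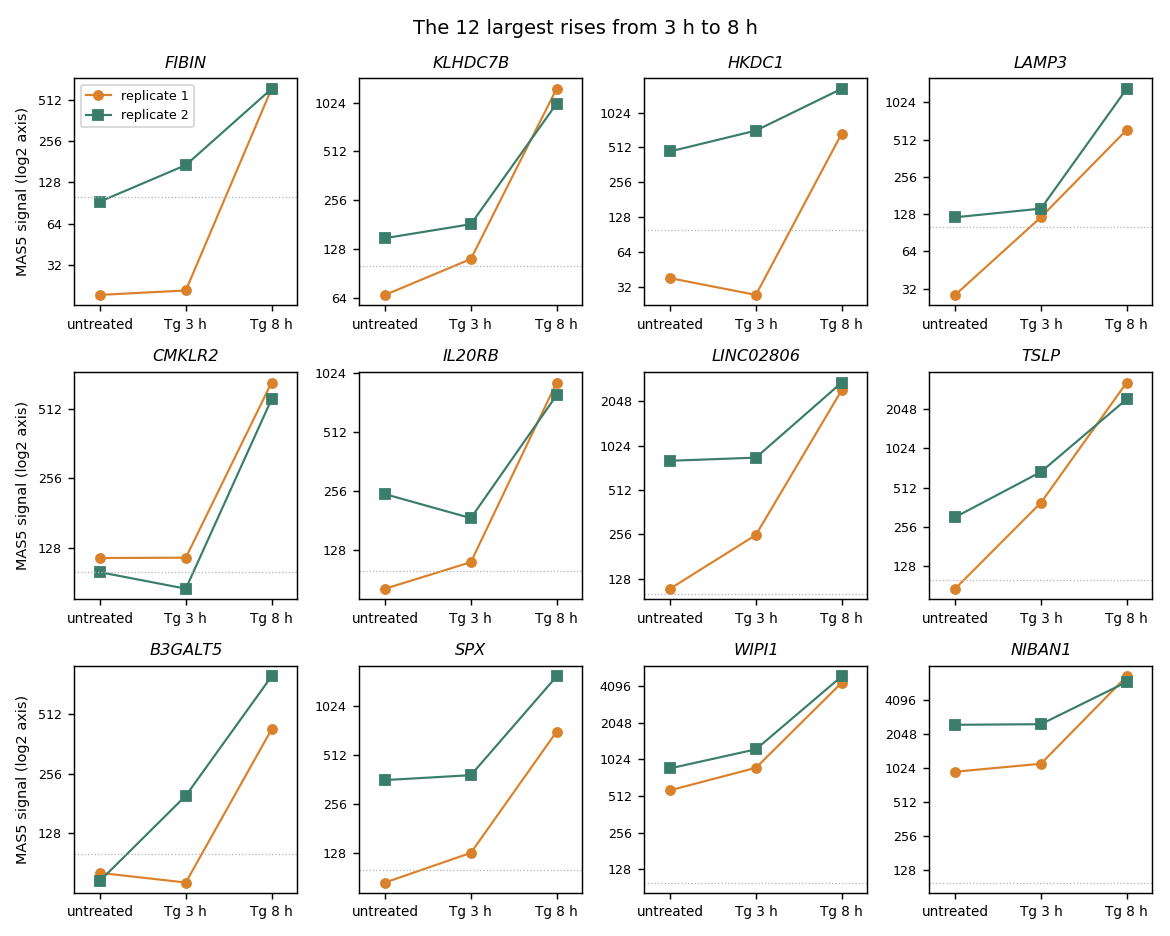
Signals on a log2 axis in untreated, Tg 3 h and Tg 8 h cells for the 12 genes that rose most from 3 h to 8 h, with replicate 1 in orange, replicate 2 in green and a dotted line at a signal of 100. The 8 h points of each gene lie above its 3 h points within each replicate, and the untreated and 3 h points of CMKLR2 lie between 84.9 and 116.

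Genes of the secretory pathway rose in each of their lists. Of 163 tested genes in 5 lists (ER chaperones, folding enzymes, ER-associated degradation, translocation with N-glycosylation, and ER to Golgi transport), 42 rose and 1 fell, where 1.57% and 1.83% of all genes did. Their median was 0.43 (0.48 in replicate 1 and 0.37 in replicate 2) against −0.06 for all genes, and 122 were higher in both replicates and 13 lower in both. Without Tg 3 h replicate 1 the number that rose was 3, without Tg 8 h replicate 1 it was 20, and the local pooled error test called 4.

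Promoter letters are printed for this group because ER stress elements are the known binding sites of ATF6 and XBP1 near the start sites of chaperone genes. RefSeq promoter windows of GRCh38.p14, 250 bases before to 50 after the start, matched 10069 tested genes and were searched on both strands for the ER stress element ERSE (CCAAT and CCACG with 9 free bases between), for ERSE-II (ATTGG and CCACG with 1 free base between) and for the UPRE core (TGACGTGG). The UPRE core can overlap the CCACG end of either element. Each line gives 5 bases on both sides, with the fixed letters of the element in capitals.
HSP90B1, ERSE on the plus strand, chr12:103930216-103930234: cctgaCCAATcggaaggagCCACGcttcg
HSPA5, ERSE on the minus strand, chr9:125241391-125241409: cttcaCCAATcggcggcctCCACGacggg
CRELD2, ERSE on the minus strand, chr22:49918554-49918572: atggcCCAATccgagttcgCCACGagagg
PDIA6, ERSE on the minus strand, chr2:10812853-10812871: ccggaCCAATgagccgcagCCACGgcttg
HYOU1, ERSE-II on the plus strand, chr11:119057380-119057390: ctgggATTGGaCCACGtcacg
SDF2L1, ERSE-II on the minus strand, chr22:21642114-21642124: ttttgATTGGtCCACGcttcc
All 6 lie upstream of the start, at 66 bases (HSPA5) to 194 bases (HSP90B1), and the CRELD2 element also lies in the window of the divergent gene ALG12. HSP90B1 held a second ERSE and HYOU1 a second ERSE-II.

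The ERSE stood in 4 of 165 promoters of genes that rose (2.42%), in 0 of 185 of genes that fell, in 0.149% of tested genes and in 0.0916% of all 27305 promoters. ERSE-II stood in 2.42%, 0 promoters, 0.149% and 0.0696% of the same sets, and the UPRE core in 7.27%, 0 promoters, 1.22% and 0.927%. Within the secretory lists, the ERSE was in 3 of 37 promoters of genes that rose (8.11%) and in 6 promoters of genes that did not pass (5.83%), and the UPRE core in 16.2% and 10.7%. The 6 that hold an ERSE and did not pass were ERO1B, ALG12, CANX, HSPA5, FICD and CALR. They differed by 1.35, 0.345, 0.26, 0.06, 0.04 and −0.49. Among genes that fell, the cell cycle element CHR (TTTGAA) stood in 24.3% of promoters, against 16.4% of genes that rose. It stood in 14.3% of tested genes and 18.2% of all promoters. Also searched were the CRE (TGACGTCA), the CARE core (TGATGNAA) and the E2F site (TTTGGCGC or TTTCCCGC). Among genes that fell these stood in 4.86%, 4.32%, 2.16% and 6.49% of promoters, against 3.79%, 3.12%, 1.31% and 3.26% of tested genes. These are matches of letters and show no binding.

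Of 19 ER chaperone and co-chaperone genes, 8 rose and 0 fell (median 0.57). SDF2L1, a partner of the ER chaperone BiP, went from 8664 and 6171 at 3 h to 18180 and 12581 at 8 h, from 1259 and 593 in untreated cells (1.05, SE 0.16, adjusted p = 0.014). DNAJB11, a co-chaperone that stimulates the BiP ATPase, went from 13531 and 14003 to 27423 and 26415 (0.97, SE 0.12, adjusted p = 0.0083). HSP90B1, the ER form of HSP90, went from 10745 and 9070 to 21485 and 16714 (0.94, SE 0.13, adjusted p = 0.0088), on a probe set marked for cross-hybridisation. The other tested probe set of HSP90B1 gave 0.40 without passing. HYOU1, a nucleotide exchange factor for BiP, went from 8908 and 9005 to 16885 and 16439 (0.90, SE 0.16, adjusted p = 0.024). In each of these genes the arrays of the 2 times did not overlap, and the replicates moved alike, HSP90B1 being the least even with 1.00 and 0.88.

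HSPA5, the gene of BiP itself, gave 2 readings. On its brightest probe set the signals were 73709 and 41567 at 3 h and 75398 and 44210 at 8 h, among the highest on these arrays, and the difference was 0.06 (SE 0.21, adjusted p = 0.93). On its dimmer probe set, looked at after the brighter one was seen, they were 3483 and 2427 at 3 h and 8628 and 6574 at 8 h, a rise of 1.37 (SE 0.13, adjusted p = 0.0029). The dimmer one read 608 and 419 in untreated cells and the brighter one 16615 and 18933. The highest signals of any probe set were 115192 and 56028 on the 3 h arrays and 86996 and 48377 on the 8 h arrays. The brighter probe set came closest to them at 8 h and was furthest below in Tg 3 h replicate 1. Saturation was not tested. The 2 probe sets read differently, so the flat reading alone does not show a level transcript. DNAJB9, another BiP co-chaperone, was at 14419 and 14443 and then at 22367 and 16833 (0.43, SE 0.16, adjusted p = 0.23), most of its distance from the untreated 1671 and 2096 having been covered by 3 h.

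Of 25 folding enzymes 7 rose and 0 fell (median 0.40). The prolyl isomerase FKBP11 went from 1541 and 1329 to 4374 and 3705 (1.49, SE 0.13, adjusted p = 0.0025), and the disulfide isomerase PDIA4 from 2718 and 3283 to 7395 and 8625 (1.42, SE 0.12, adjusted p = 0.002). Both passed with each array left out and in the local pooled error test. FKBP14 rose by 1.19 and the thiol-dependent retention factor ERP44 by 0.94.

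Of 31 genes of ER-associated degradation, which moves misfolded proteins to the proteasome, 8 rose and 0 fell (median 0.27). SEL1L, the scaffold of the HRD1 ubiquitin ligase, went from 6989 and 6201 to 17720 and 13732 (1.24, SE 0.15, adjusted p = 0.007). The lectin ERLEC1 rose from 5967 and 5799 to 13152 and 11407 (1.06, SE 0.13, adjusted p = 0.0074), while SELENOS and the mannosidase-like EDEM2 rose by 1.00 and 0.99. HERPUD1, whose promoter holds an ERSE-II, differed by 0.15.

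Translocation and N-glycosylation gave 12 of 43 higher and 0 lower (median 0.45). GFPT1, the first enzyme of the hexosamine pathway that supplies the sugars for glycosylation, rose from 2684 and 4781 to 11402 and 10742 (1.63, SE 0.26, adjusted p = 0.017). UAP1, which makes UDP-N-acetylglucosamine in that pathway, rose from 3842 and 4841 to 6727 and 8467 (0.81 in both replicates, adjusted p = 0.012). The translocon protein TRAM1 rose by 0.77 and the mannosyltransferase ALG2 by 0.75.

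In ER to Golgi transport, 8 of 47 genes rose and 1 fell (median 0.44). Several of the risers belong to the COPII coat that buds vesicles from the ER: SEC24D went from 501 and 900 to 2502 and 2334 (1.85, SE 0.23, adjusted p = 0.008), SEC23B from 3171 and 3237 to 7582 and 6629 (1.15, SE 0.13, adjusted p = 0.0057), and SEC31A from 3091 and 4910 to 7921 and 8196 (1.05, adjusted p = 0.014). MIA2, which helps to load large cargo, rose by 1.21. ERGIC1, a cycling protein of the ER-Golgi intermediate compartment, fell from 3780 and 2426 to 1034 and 1366 (−1.35, adjusted p = 0.019), and its other 2 probe sets gave −0.59 and −0.47 without passing. NUCB2, a calcium-binding protein of the secretory pathway, rose from 2452 and 2479 to 6893 and 5707 (1.35, SE 0.16, adjusted p = 0.007). It was the 1 gene of 22 in the ER calcium list to change (4.55%), where 3.4% of all tested genes changed.

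**Figure D4:**
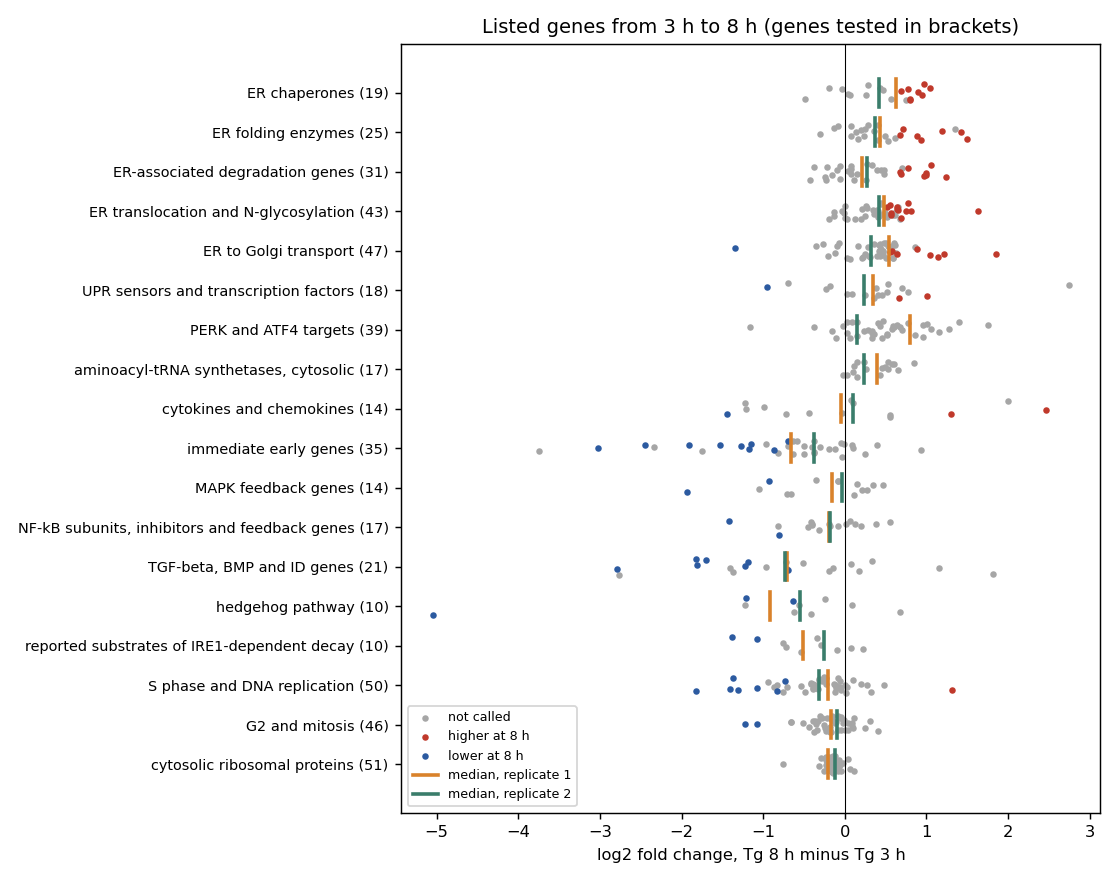
Log2 differences of Tg 8 h minus Tg 3 h for the tested members of 18 gene lists (number tested in brackets), with red and blue points for genes that passed the test, grey points for those that did not, and bars at the median of replicate 1 (orange) and replicate 2 (green). The secretory lists lie mostly to the right of 0 with red points, while immediate early and TGF-beta, BMP and ID genes lie mostly to the left, and PERK and ATF4 targets hold no coloured point and have the medians farthest apart among the secretory and UPR lists.

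Of 18 tested UPR sensors and transcription factors, 2 rose and 1 fell, against 1.57% and 1.83% of all genes, and 12 were higher in both replicates (median 0.39). ERN1, which encodes IRE1, rose from 306 and 537 to 651 and 1025 (1.01, SE 0.21, adjusted p = 0.038). Like GLI3, it passed in none of the fits that left out an array, and its adjusted p was 0.062 with signals under 100 raised to 100. The other 2 probe sets of ERN1 gave 0.19 and 0.66 without passing. NFE2L1, an ER-anchored transcription factor, rose by 0.67, while CEBPD fell from 968 and 1432 to 491 and 753 (−0.95, adjusted p = 0.022). DDIT3, the gene of CHOP, stood at 19271 and 15025 at 3 h and 20009 and 15123 at 8 h, beside 405 and 1654 in untreated cells, with a difference of 0.03 (SE 0.47, adjusted p = 0.98). XBP1 was at 3817 and 4899 and then 4560 and 4663 (0.09, SE 0.32), and its spliced and unspliced forms were not measured apart. EIF2AK3, the gene of PERK, differed by 0.25, ATF6 by 0.52, ATF4 by 0.45 and PPP1R15A, the gene of GADD34, by 0.36. Their adjusted p ran from 0.36 to 0.61. For ATF6 the 2 replicates gave −0.01 and 1.05. BHLHA15, a transcription factor of secretory cells, went from 80.5 and 92.3 to 564 and 591, the largest difference of the list, but did not pass (2.74, SE 0.70, adjusted p = 0.082). Within the replicates BHLHA15 gave 2.81 and 2.68, and DDIT3 gave 0.05 and 0.01. The SE also draws on the untreated arrays, which read 15.7 and 7.7 for BHLHA15. It therefore does not measure the spread of the 8 h minus 3 h difference alone.

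Targets of PERK and ATF4, enzymes and transporters for amino acids together with stress regulators, gave 0 of 39 passing in either direction. Among all tested genes 1.57% rose and 1.83% fell. Of the 39, 28 were still higher in both replicates, and the median was 0.45. The 2 replicates differed here: the median was 0.80 in replicate 1 and 0.15 in replicate 2. ASNS, asparagine synthetase, went from 2441 to 9645 in replicate 1 and from 11986 to 13158 in replicate 2, and TRIB3, an inhibitor of AKT and ATF4, from 5851 to 20907 and from 11663 to 16097. Before treatment the list was already higher in replicate 2, by a median of 2.00, and the gap was 0.90 at 3 h and 0.13 at 8 h. ASNS in untreated cells read 1296 in replicate 1 and 10740 in replicate 2. The cytosolic aminoacyl-tRNA synthetases, which also depend on ATF4, had a median of 0.43 with 0 of 17 passing, and replicate 2 exceeded replicate 1 by a median of 0.74 in untreated cells, 0.49 at 3 h and 0.01 at 8 h. The part of this starting difference in the result was not tested.

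**Figure D5:**
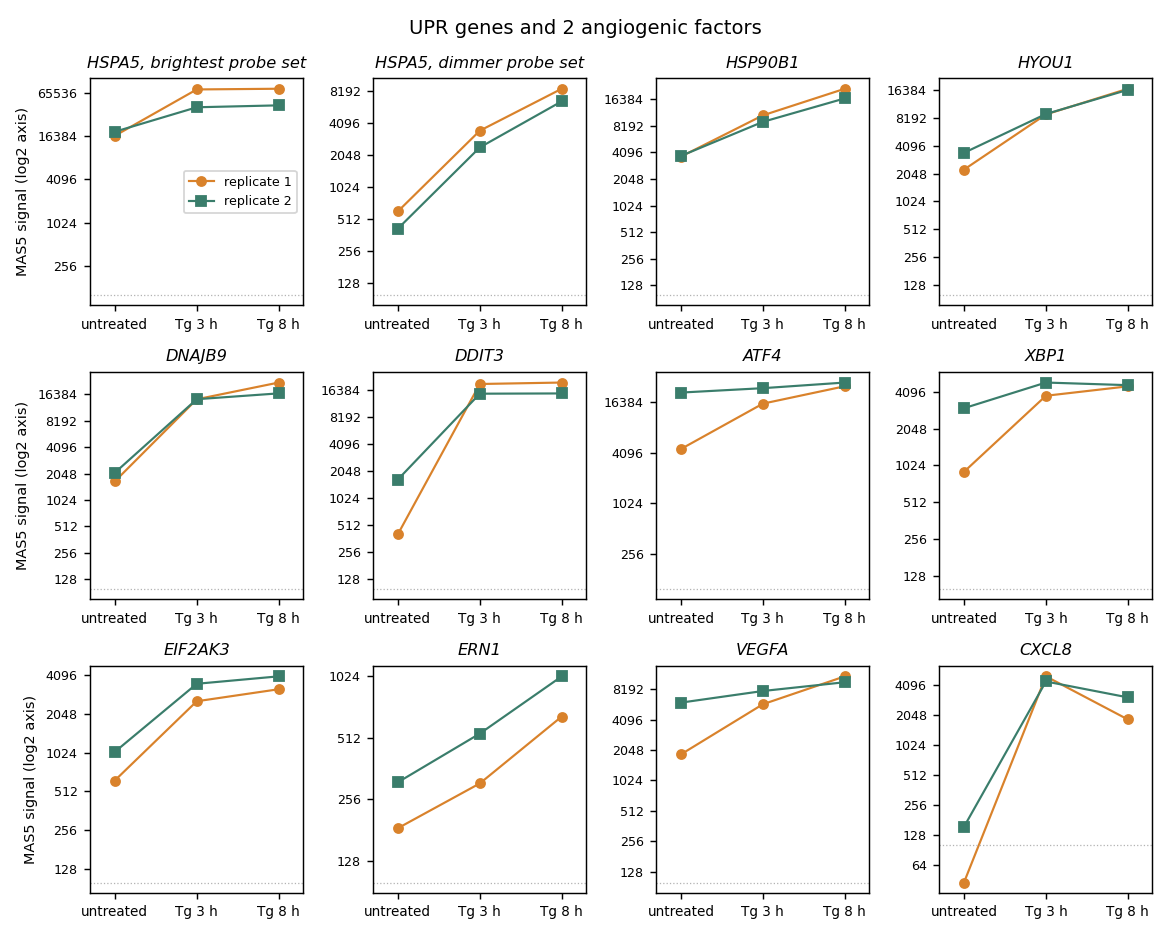
Signals on a log2 axis in untreated, Tg 3 h and Tg 8 h cells for UPR genes, with HSPA5 shown on both of its probe sets, and for VEGFA and CXCL8, with replicate 1 in orange, replicate 2 in green and a dotted line at a signal of 100. HSP90B1, HYOU1 and the dimmer HSPA5 probe set climb from 3 h to 8 h, DDIT3 reads 15025 to 20009 at both times, and CXCL8 is lower at 8 h in both replicates.

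Of the angiogenic factors the study followed, 13 could be tested, and 3 rose and 1 fell, where 1.57% and 1.83% of all genes did. The study picked this list on these same arrays, so the counts are not independent evidence of a direction. ANG, the ribonuclease angiogenin, rose from 300 and 481 to 1548 and 1072 (1.76, SE 0.31, adjusted p = 0.024). FGF2, a fibroblast growth factor, rose from 212 and 579 to 632 and 1089 (1.24, SE 0.25, adjusted p = 0.035), and IL1A rose as given above. F3, tissue factor, fell from 6404 and 2448 to 3215 and 1577, by 0.99 and 0.64 within the replicates (−0.81, adjusted p = 0.02), with the groups overlapping.

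The other 9 did not pass. VEGFA, the endothelial growth factor, read 5812 and 7860 at 3 h and 10979 and 9601 at 8 h (0.60, SE 0.34, adjusted p = 0.42), and replicate 2 was already at 6031 in untreated cells where replicate 1 was at 1854. CXCL8, interleukin-8, read 5035 and 4468 at 3 h, 1853 and 3091 at 8 h and 42.3 and 154 in untreated cells, and its difference of −0.99 did not pass (SE 0.37, adjusted p = 0.23), nor did that of its second probe set, −0.93. Fitted on the 4 Tg arrays without the untreated ones, the brighter probe set of CXCL8 did pass (adjusted p = 0.04, limma). CCN2 (−0.70) and TGFB2 (−0.72) missed the threshold with adjusted p of 0.053 and 0.064. On the probe set read here, TGFB2 differed from untreated cells by −0.15 at 3 h and −0.87 at 8 h, whereas the study lists it as raised at both times. TGFB2 had 3 tested probe sets, and the study does not say which it used. The others were not compared here, so the readings need not conflict. IL6 (0.55), EPAS1 (0.55), KLF5 (0.39), EREG (1.44) and VASH1 (−0.90) had adjusted p from 0.19 to 0.47. ANGPT2 was too dim to be tested.

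Among the remaining lists, changes were few, where 1.57% of all tested genes rose and 1.83% fell. In autophagy 3 of 30 genes rose and 0 fell: WIPI1, the ER-phagy receptor CCPG1, from 457 and 1052 to 1611 and 1660 (1.24, adjusted p = 0.04), and MAP1LC3B, the membrane tag of autophagosomes, from 2376 and 5247 to 4793 and 7389 (0.75, adjusted p = 0.031). Of 26 genes of apoptosis, the death receptor TNFRSF10B rose from 2366 and 2352 to 4543 and 5047 (1.02, SE 0.17, adjusted p = 0.019), while TNFRSF21, another receptor with a death domain, fell from 1622 and 1213 to 613 and 503 (−1.34, adjusted p = 0.0085) and the BH3-only gene BIK by 1.01. In the list of HIF targets and glycolysis 2 of 34 rose, NDRG1 by 1.05 and the hexokinase HK2 by 0.96, although the other 2 probe sets of HK2 gave −0.42 and −0.30 without passing. COL1A2, a chain of type I collagen, was the 1 of 39 matrix genes to change, from 551 and 415 to 1512 and 828 (1.23, adjusted p = 0.017). The EGF family ligand HBEGF fell by 0.86, KEAP1, the inhibitor of NRF2, by 0.68, and the ribosome biogenesis factor GRWD1 by 0.91. ERG, an endothelial transcription factor that was dim here at 690 and 161 and then 242 and 62.6, fell by 1.44, with groups overlapping, and by 1.10 when signals under 100 were raised to 100.

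No gene passed in either direction among 51 cytosolic ribosomal proteins (median −0.15), 36 respiratory chain subunits (0.04), 27 proteasome subunits (0.03), 20 genes of cholesterol synthesis and uptake (−0.01), 17 cytosolic heat shock genes (−0.16) and 9 prostaglandin genes (−0.23). Of the ribosomal proteins 41 were lower in both replicates and 0 higher in both, where 4645 and 3211 of all 12307 genes were. A gene that did not pass is not shown to be unchanged, and the smallest differences that passed were 0.52 upwards and −0.57 downwards.

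Where a gene that changed was also measured by other probe sets, the direction mostly held. The 418 genes included 248 with at least 1 further tested probe set, 434 probe sets in all, of which 401 moved in the gene's direction. Of the 434, 130 passed the test in the same direction and 0 passed in the opposite one.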

How the data were processed

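RNA of Daoy cells was measured on 6 Affymetrix HG-U133 Plus 2.0 arrays. The deposited values are MAS5 signal intensities, which the authors computed in the GCOS software and scaled array by array to the same trimmed mean; the genome build of the probe annotation is not given in the sources used here. The deposited table held 54675 probe sets, of which 62 controls were left out. By the platform annotation 41091 probe sets had 1 gene symbol, 1801 several and 11721 none, and no symbol was altered on matching to RefSeq. No gene was read from a probe set with several symbols. NR4A1, NR4A2, ZNF367, CMKLR2, HSP90B1, CALR, CDT1, CD59, CCPG1, NFE2L1 and CXCL8 were read from probe sets whose suffix marks possible cross-hybridisation.

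The deposited intensities were converted to log2, and the 25699 probe sets that reached 100 on 2 or more of the 4 Tg arrays were fitted with limma 3.58.1 in R 4.3.3, using all 6 arrays, group and replicate number as terms, an intensity trend and Benjamini-Hochberg adjustment over all 25699, with a two-sided threshold of 0.05. No detection calls were used, so depth was judged from signal alone, and the number of arrays limits the precision. The methods describe 2 independent experiments, and same-numbered arrays deviated together from their group means (correlations of 0.29 to 0.35, or 0.65 to 0.69 over 12413 bright probe sets). The text names the 15 largest rises and 15 largest falls with both replicates the same way and a mean signal of at least 500 in the higher group, up to 4 changed members of each list, the angiogenic factors of the study and 11 UPR genes; other members named (such as EGR1, RCAN1, CDC6, SEC31A and ASNS) were chosen after their values were seen. The members and lists were chosen with earlier results of these data known. Alternatives were the fit without the block, the 4 Tg arrays alone, the local pooled error test, no intensity trend, quantile or median scaling, other signal filters, a floor of 100, a pseudocount of 50, the mean of a gene's probe sets, a 2-fold minimum and each array left out. The fit was tested on simulated data. Promoter windows were searched with Python 3.11.15. No p-value or fold change of the authors was used.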

Additional observations from a re-analysis of the deposited data

How the results depend on the processing

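The main model called 418 genes, 193 higher and 225 lower, and 42 secretory genes higher. Without the replicate block these became 0, 0, 0 and 0, and without the intensity trend 0, 0, 0 and 0. The local pooled error test gave 42, 22, 20 and 4, and a 2-fold minimum gave 197, 75, 122 and 11. Leaving out 1 array gave totals of 34 to 677, with 13 to 314 higher, 21 to 363 lower and 3 to 39 secretory genes higher. The 4 Tg arrays alone, quantile or median scaling, the other signal filters, the floor, the pseudocount and the mean of a gene's probe sets kept these 4 counts within 1.5 times. Of 107 named genes, 107 kept their direction after quantile or median scaling. Without the block and in the local pooled error test, the log2 difference is the same number as in the main model. Direction could not turn in those fits, so they say nothing about it. Of the 90 named genes that passed, 62 did not pass in the local pooled error test, 24 without Tg 3 h replicate 2 and 5 without Tg 8 h replicate 2.

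The directions that turned were of genes that had not passed. Over the fits that left out 1 array, ATF4 ranged from −0.181 (without Tg 8 h replicate 1) to 1.087, DDIT3 from −0.588 (without that array; −0.554 without Tg 3 h replicate 2) to 0.651, VEGFA from −0.028 (without Tg 8 h replicate 1) to 1.234, ATF6 from −0.033 (without Tg 3 h replicate 2) to 1.079, HSPA5 from −0.207 (without Tg 3 h replicate 2) to 0.329 and XBP1 from −0.414 (without Tg 8 h replicate 1) to 0.600. With the mean of its probe sets, the log2 fold change of XBP1 was −0.443. The cause of these shifts was not tested. With an array of one time left out, that time rests on 1 array, assumed to vary like the others.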
